A study of Rattus norvegicus with 24 samples.

Results

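Enzymes that remove superoxide and peroxides, or that make, recycle and use glutathione, were examined in the rat urethra as a set of 37 named genes, taken by gene symbol from a table of 32883 genes. Of these, 35 had a row in the table. Srxn1 and Gstm2 had no row under those symbols and were not analysed here. They comprised 3 superoxide dismutases, 6 genes for catalase and glutathione peroxidases, 6 peroxiredoxins, 4 genes for thioredoxins and their reductases, 4 for glutathione synthesis and reduction, 7 glutathione S-transferases, 3 genes for haem oxygenases and a quinone reductase, and the regulators Nfe2l2 and Keap1. All 35 passed the filter on low values (a mean normalized count of at least 2).

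The rats were virgin female Sprague-Dawley rats of 12 weeks, all with simulated vaginal delivery (SVD), in which the pudendal nerve is crushed and the vagina distended to model the injury of childbirth. An hour later they received saline or allogeneic mesoangioblasts (MABs) into the aorta, and the urethra was taken 3d or 7d later. MABs are vessel-associated stem cells, here from hind limb muscle of other rats, sorted for alkaline phosphatase and carrying a lentiviral reporter of eGFP and firefly luciferase. MABs-VEGF additionally carried a lentivirus that expresses VEGF165 and a truncated CD34. The labels give this overexpression as the genotype, but it belongs to the injected cells and not to the host. The 3 treatments and 2 days made 6 groups of 4 samples, and the titles name 2 of the MABs-VEGF samples at 7d as recovered. The sample codes in the titles open with the day in every group but MABs at 3d. The sources used here do not explain this difference in naming. Each library came from bulk urethral tissue, in which fewer cells of a type and less RNA per cell cannot be told apart. The labels say only that the samples of a group are separate, so the p-values measure the spread between these samples.

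Superoxide dismutases turn superoxide into hydrogen peroxide, in the cytosol (Sod1), the mitochondrion (Sod2) and the extracellular matrix (Sod3). Catalase, the glutathione peroxidases and the peroxiredoxins then reduce peroxides, and glutathione reductase and the thioredoxin reductases restore the spent glutathione and thioredoxin with NADPH. The transcription factor Nrf2 (Nfe2l2), held down by Keap1 in unstressed cells, is known to induce many of these genes, of which Nqo1, Gclm and Hmox1 are among the best known.

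The libraries held 2170695 to 10166052 counted reads, and the fewest reads behind any value of these enzymes were 10. The cell-treated samples of 3d had the fewest reads, with medians of 3452557 in MABs and 3928423 in MABs-VEGF, against 4925904 to 6061878 in the other groups. A pair of libraries stood apart from their groups on the first principal component of the 500 most variable genes. Saline 3d replicate 6 had a score of 54.6, where the other saline samples of 3d had scores of -52.3 to -6.43 and the MABs samples 49.8 to 90.1. MABs-VEGF 3d replicate 4 had a score of 0.702, where the others of its group had 57.3 to 75.2. Both are absent from the study's figures, so values are given with all 24 samples and then with the other 22. Each of them lay toward the other treatment on this component. Leaving them out can therefore by itself widen the differences between cell-treated and saline samples at 3d. Saline 3d replicate 8 was the sample of its group with the highest level of Schwann cell and adipocyte markers (36166 against 8880 to 10646 for 6 Schwann cell genes, and 24976 against 2493 to 3538 for 7 adipocyte genes, in summed normalized counts). It also had the lowest sums of 8 epithelial markers (2109 against 50641 to 65740) and of 8 smooth muscle markers (23577 against 109449 to 189753), and results that rest on it are given without it. MABs-VEGF 3d replicate 2 likewise had an epithelial sum of 3909, where the others of its group had 58659 to 94381. The rat gene Vegfa had normalized counts of 619 to 1352 in MABs-VEGF, 1334 to 2262 in MABs and 958 to 1172 in saline at 3d, and the sources used here do not say whether vector transcripts add to it.

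Levels were set as normalized counts, which are reads divided by a size factor of the sample, and for 3ʹ libraries no length enters. Gpx1, the abundant cytosolic glutathione peroxidase, had the highest mean over the 24 samples at 12184, followed by Txn1, the cytosolic thioredoxin, at 7692 and Sod3 at 6472. The lowest means were those of the mitochondrial thioredoxin reductase Txnrd2 (197), the microsomal transferase Mgst3 (298) and the 4-hydroxynonenal-conjugating transferase Gsta4 (299). Gpx1 ranged from 4864 to 17555 over the 24 samples and Txnrd2 from 112 to 334. Within groups the spread, as the pooled SD of log2(normalized count + 1), was smallest for Keap1 (0.162), Sod1 (0.197), Hmox2 (0.252) and Prdx6 (0.256), and the median over the 35 genes was 0.447. For all genes with a mean of at least 100 the median was 0.444. Hmox1, the inducible haem oxygenase, had the widest spread by far, 1.92, and its normalized counts ran from 114 to 13768 within the MABs group of 3d alone. The map of all 35 genes shows them in the 24 samples.

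**Figure D1:**
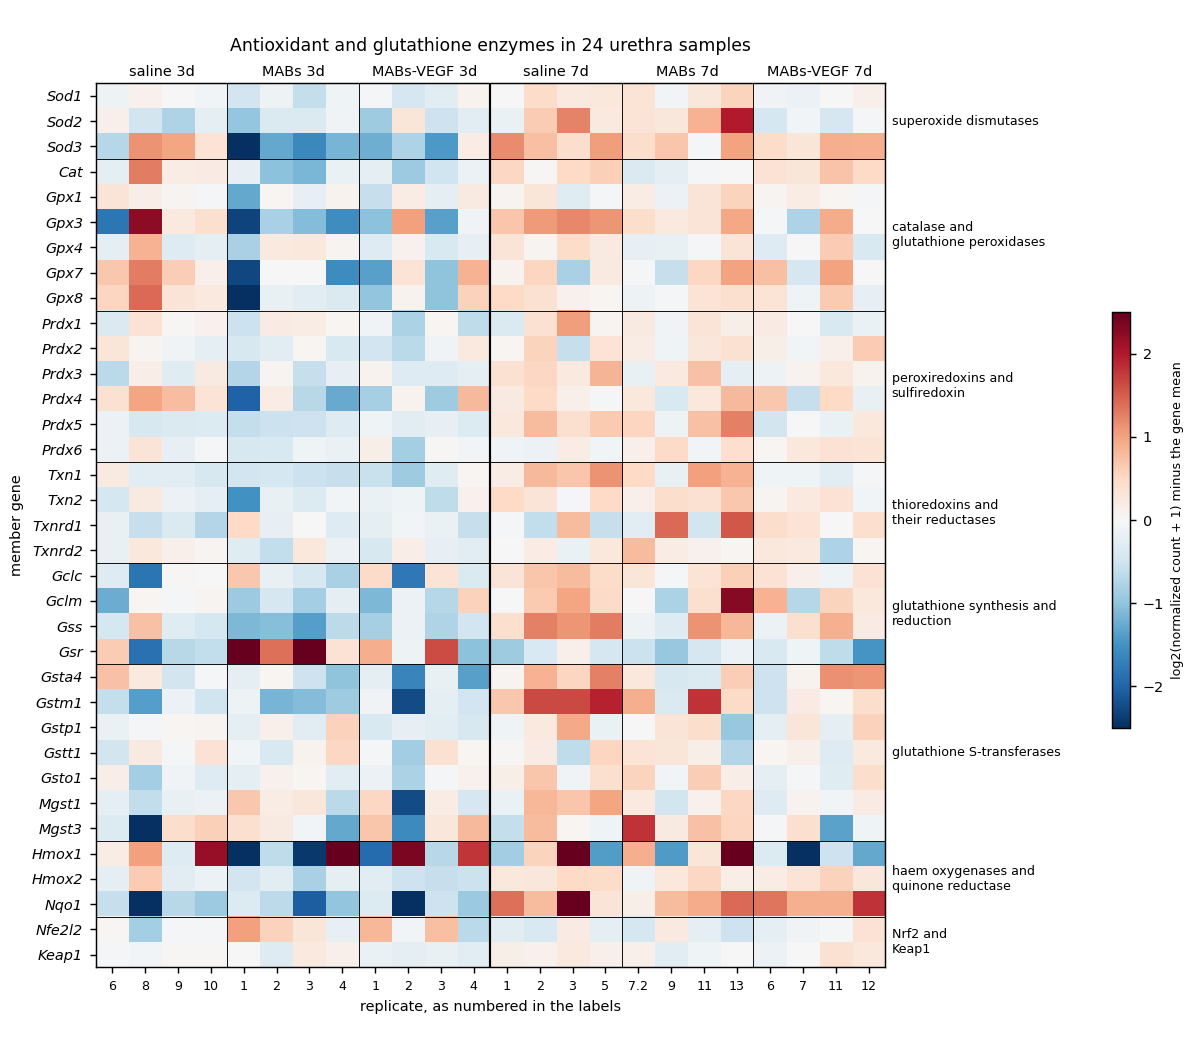
Each row is 1 of the 35 enzymes or regulators, ordered by enzyme class, and each column is 1 sample, numbered as in the labels; colour gives log2(normalized count + 1) minus the gene's mean over the 24 samples, cut at 2.5 in either direction. Gsr is raised in the MABs samples of 3d, Nqo1 is below its mean in every sample of 3d, and Hmox1 is uneven within each group.

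At 3d, the question was whether urethras that received MABs differed from those that received saline. Of the 35 genes, 6 fell after MABs and 1 rose, in a limma test over all 16287 genes with Benjamini-Hochberg adjustment (adjusted p below 0.05). Over all genes tested, 4.48% fell and 10.7% rose, a split that depends on scaling: with every sample set to the same total, 1677 genes fell and 1166 rose in place of 729 and 1737, the median of all genes moved from 0.07 to -0.19, and 9 of the 35 fell and 1 rose. The genes that fell were Sod3, catalase (Cat), the glutathione peroxidases Gpx3, Gpx7 and Gpx8, and Prdx4. Apart from catalase, a peroxisomal enzyme, they encode proteins that are secreted or reside in the endoplasmic reticulum. This describes only the genes that passed, and location was not compared over the set. The microsomal transferases Mgst1 and Mgst3 did not pass, with means of 2809 and 242 after saline and 3936 and 243 after MABs. The gene that rose was Gsr, the glutathione reductase. The median log2 fold change was -0.24 over the 35 genes and 0.07 over all genes, and 24 of the 35 were lower and 11 higher.

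Sod3 (ENSRNOG00000003869), the extracellular superoxide dismutase, had normalized counts of 3192, 6626, 10357 and 11402 after saline and of 930, 1717, 2172 and 2360 after MABs. Each MABs sample was below each saline sample. The log2 fold change with its standard error (SE) was -2.06 (SE 0.37, adjusted p = 0.00590, limma), from 7894 ± 3746 (SD, n = 4) to 1795 ± 636 (SD, n = 4). With 22 samples it was -2.45 (SE 0.31, adjusted p = 3.71e-05, limma), and without saline replicate 8 it was -1.83 (adjusted p = 0.0304). Sod3 passed the threshold whichever of the 8 samples was left out, and in a fit of only the 8 samples compared it did not (adjusted p = 0.0608).

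Among the peroxidases, catalase, which breaks down hydrogen peroxide without a cofactor to recycle, had normalized counts of 2665 to 7604 after saline and 1431 to 2794 after MABs, so that the groups overlapped (log2 fold change -0.99, SE 0.27, adjusted p = 0.0193, limma). Gpx3, the secreted plasma glutathione peroxidase, had 534, 2230, 2474 and 8807 after saline and 376, 640, 886 and 1072 after MABs, again with an overlap, which came from saline replicate 6 (log2 fold change -1.70, SE 0.57, adjusted p = 0.0466, limma). Gpx7 and Gpx8 are peroxidases of the endoplasmic reticulum that act beside the oxidative folding of proteins. Gpx7 had 528 to 1184 after saline and 99.4 to 492 after MABs, and Gpx8 had 1510 to 3383 and 199 to 1116. Neither overlapped, and the log2 fold changes were -1.64 (SE 0.52, adjusted p = 0.0376, limma) and -1.50 (SE 0.43, adjusted p = 0.0228, limma). Gpx1 and Gpx4, the peroxidase of membrane lipid peroxides, did not pass, with values that overlapped between the groups (4864 to 12667 and 802 to 1671 after MABs, 11638 to 14858 and 1122 to 2560 after saline).

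Prdx4, the peroxiredoxin of the endoplasmic reticulum, had normalized counts of 1098, 1129, 1487 and 1717 after saline and 213, 364, 535 and 990 after MABs. The groups did not overlap, and the log2 fold change was -1.56 (SE 0.40, adjusted p = 0.0151, limma). The other 5 peroxiredoxins, which act in the cytosol, mitochondrion or peroxisome, did not pass, and their log2 fold changes lay between -0.27 and -0.06.

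Gsr (ENSRNOG00000014915), which reduces glutathione disulfide with NADPH, had normalized counts of 82.3, 186, 197 and 468 after saline and 385, 788, 1856 and 2407 after MABs. Only saline replicate 6 was above the lowest MABs sample. The log2 fold change was 2.47 (SE 0.56, adjusted p = 0.00957, limma). With 22 samples the groups no longer overlapped, as for 28.0% of all genes, and the value was 2.89 (SE 0.52, adjusted p = 0.000598, limma). The genes that make glutathione did not rise with it. Gclc and Gclm, the catalytic and modifier subunits of glutamate-cysteine ligase, did not pass, and Gss, the glutathione synthetase, had 391 to 878 after saline and 203 to 336 after MABs. The Gss groups did not overlap, but its adjusted p of 0.0510 (limma, log2 fold change -0.95, SE 0.33) missed the threshold, and it fell below it with 22 samples (0.0389).

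Of the 35 genes, the groups of MABs and saline did not overlap for 6 (Sod3, Gpx7, Gpx8, Prdx4, Gss and Txn1), against 14.7% of all genes tested. Txn1 had 5360 to 8322 after saline and 4774 to 5268 after MABs, a log2 difference of -0.32 (SE 0.24, adjusted p = 0.371, limma). No glutathione S-transferase passed, and neither did a thioredoxin reductase, a haem oxygenase, Nqo1, Nfe2l2 or Keap1. Nfe2l2 had 2019 to 3777 after saline and 3163 to 7405 after MABs (log2 fold change 0.65, SE 0.30, adjusted p = 0.138, limma). Hmox1 had 1219 to 6862 and 114 to 13768 (log2 fold change -1.67, SE 1.19, adjusted p = 0.350, limma).

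With 22 samples, 7 of the 35 genes fell and 1 rose (the same 7 genes and Gss), where 6.82% of all genes fell and 15.8% rose. Without saline replicate 8, 1 of the 35 fell (Sod3) and none rose (limma), with adjusted p from 0.0521 for Gsr to 0.229 for Gpx3 among the other 6, where 0.473% of all genes fell and 1.98% rose. Without MABs replicate 1, which had the lowest Sod3, Gpx3, Gpx7, Gpx8 and Prdx4 of its group, 2 fell and 1 rose, where 1.21% of all genes fell and 3.82% rose.

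**Figure D2:**
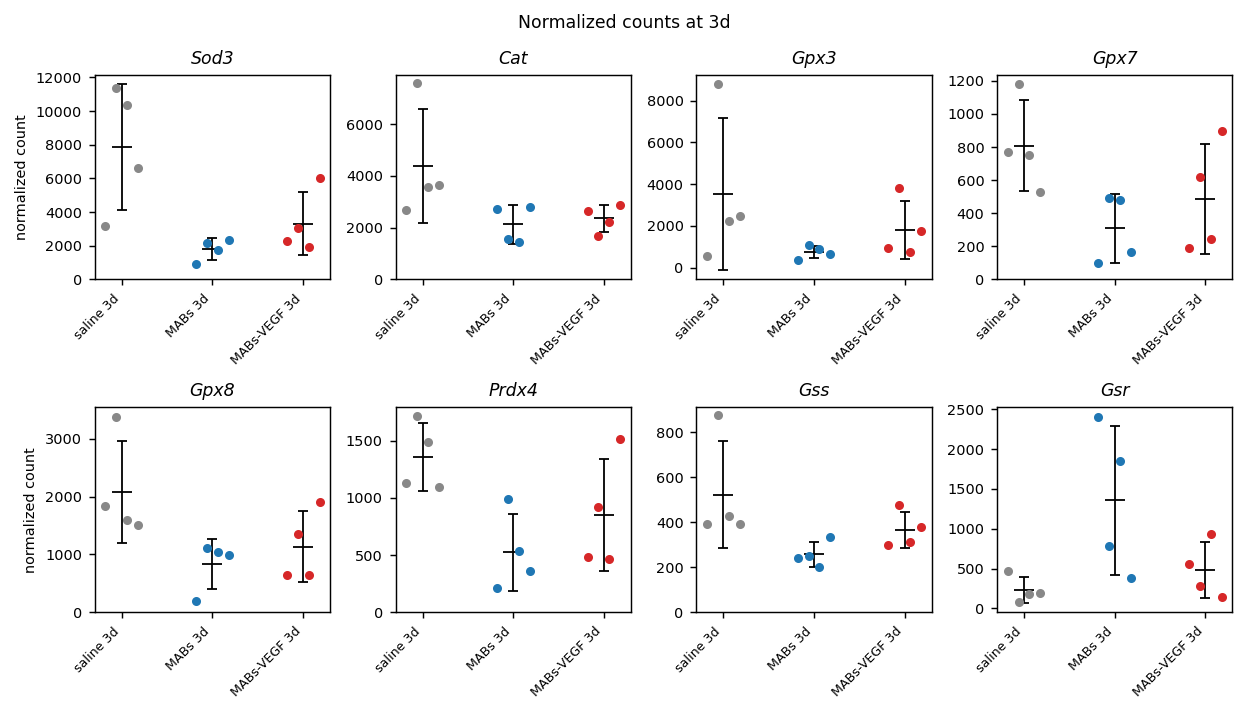
Normalized counts at 3d of the 7 enzymes that passed between MABs and saline and of Gss, 1 point per sample (4 in each of saline, MABs and MABs-VEGF), with the mean and SD as a bar. MABs samples of Sod3, Gpx7, Gpx8, Prdx4 and Gss all sit below the saline samples, and 3 of the 4 MABs samples of Gsr sit above all saline samples.

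Markers of other cells moved in the same comparison. Of 9 macrophage markers, 5 fell (Lyz2, Csf1r and the complement genes C1qa, C1qb and C1qc) with a median log2 fold change of -1.85 over the 9, and their summed normalized counts were 25002 to 54377 after saline and 2357 to 19525 after MABs. Of 5 fibroblast markers, 2 fell (Dcn and Lum, median -1.59), with sums of 339580 to 510379 after saline and 54564 to 299904 after MABs. Of 6 mast cell markers, 4 fell (median -4.81). Of 6 skeletal muscle markers, 2 rose (Mylpf and Tnnt3), as did the smooth muscle gene Synpo2, the epithelial keratin Krt14 and 3 of 13 mitochondrially encoded genes. No endothelial, neutrophil, red cell, adipocyte or Schwann cell marker passed (limma), with medians of -0.33, -0.78, -0.73, -1.74 and -1.75, and 7 of them had an unadjusted p below 0.05. With 22 samples 4 of the 5 fibroblast markers fell, as did 1 endothelial and 1 red cell marker, no skeletal muscle marker rose (limma, 2 at an unadjusted p below 0.05), and the macrophage and mast cell counts were again 5 and 4. MABs replicate 1, the sample with the lowest values of the secreted and reticular peroxidases, had the lowest sum of both the macrophage and the fibroblast markers. The part of these cell types in the fall of the 6 enzymes was not tested. Cytosolic ribosomal proteins took 5.27 to 6.69% of the total after saline and 3.49 to 5.53% after MABs, and its part was not tested either.

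The wider pathway gave few calls, in a comparison where 4.48% of all genes fell and 10.7% rose. In a list of other glutathione and thioredoxin genes, 2 of 36 tested rose, Chac2, a glutathione-degrading enzyme (log2 fold change 3.79), and the sestrin Sesn3 (2.74), and 3 fell, Msrb2, Sesn1 and Txndc17 (median of the list -0.13). Of 18 Nrf2 partners and targets, Bach1, a repressor at Nrf2 sites, rose (4.79), and so did Cul3, the ubiquitin ligase scaffold that Keap1 binds (0.78). Of 11 genes of haem and iron handling, Hpx, the haem-binding protein of plasma, fell (-3.01). Of 14 oxidant-producing enzymes, Xdh (-1.06) and Cyba (-0.86) fell.

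Whether cells with VEGF gave the same picture was asked by comparing MABs-VEGF with saline, a comparison that shares its saline samples with the one above. None of the 35 genes passed with all 24 samples (limma, 6 at an unadjusted p below 0.05, 1 by DESeq2 and 0 by edgeR), and 0.0307% of all genes did by limma and 2.98% by DESeq2. The median log2 fold change of the 35 was -0.20, against 0.04 over all genes, and 27 were lower. Sod3 had normalized counts of 1937, 2260, 3067 and 6002, where the highest was that of replicate 4 (log2 fold change -1.24, SE 0.37, adjusted p = 0.109, limma). Gsr had 147, 275, 562 and 933, where replicate 4 was the lowest (log2 fold change 0.97, SE 0.56, adjusted p = 0.372, limma). Catalase had 1675 to 2859 (log2 fold change -0.80, SE 0.27, adjusted p = 0.133, limma).

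With 22 samples, Sod3 (log2 fold change -1.95, SE 0.33, adjusted p = 0.000544, limma) and catalase (-1.10, SE 0.29, adjusted p = 0.0126, limma) fell and Gsr rose (1.85, SE 0.56, adjusted p = 0.0263, limma) after MABs-VEGF, where 3.51% of all genes fell and 12.9% rose. In the 22 samples the groups did not overlap for 11 of the 35 genes, these 3 included, against 33.1% of all genes. In all 24 the groups did not overlap for Hmox2, the constitutive haem oxygenase (1190 to 2242 after saline, 964 to 1184 after MABs-VEGF), for Gstp1, the pi-class transferase (2424 to 2829 and 2048 to 2334), and for Keap1 (584 to 623 and 508 to 546), against 4.0% of all genes. None of them passed, with log2 fold changes of -0.48 (SE 0.19, adjusted p = 0.189, limma), -0.30 (SE 0.28, adjusted p = 0.613, limma) and -0.20 (SE 0.17, adjusted p = 0.568, limma). Markers of other cells moved with the calls of the 22 samples. Fibroblast markers summed to 92692, 125959 and 419054 after MABs-VEGF and to 424496 to 510379 after saline, without overlap, and all 5 were lower, of which 1 passed. Of 7 red cell markers 4 fell and of 6 mast cell markers 2 fell, while none of the 9 macrophage markers passed (limma, 2 at an unadjusted p below 0.05), with sums of 6094 to 41705 that overlapped those of saline. The part of these cells in the calls of Sod3, Cat and Gsr was not tested. In all 24 samples no marker of these 4 cell types passed (limma, 6 at an unadjusted p below 0.05), and the fibroblast sums reached 635832 in MABs-VEGF replicate 4.

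The direct comparison of MABs-VEGF with MABs at 3d gave none of the 35 genes (limma, 2 at an unadjusted p below 0.05, 0 by DESeq2 and by edgeR) and 0.00614% of all genes. Those with an unadjusted p below 0.05 were the same pair that led above. Sod3 was higher after MABs-VEGF by 0.82 (log2, SE 0.37, adjusted p = 0.781, limma) and Gsr lower by a log2 fold change of -1.50 (SE 0.56, adjusted p = 0.688, limma). With 22 samples these values were 0.49 (SE 0.31) and -1.04 (SE 0.52), each with an adjusted p of 1.0 (limma), and none of the 35 had an unadjusted p below 0.05.

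**Figure D3:**
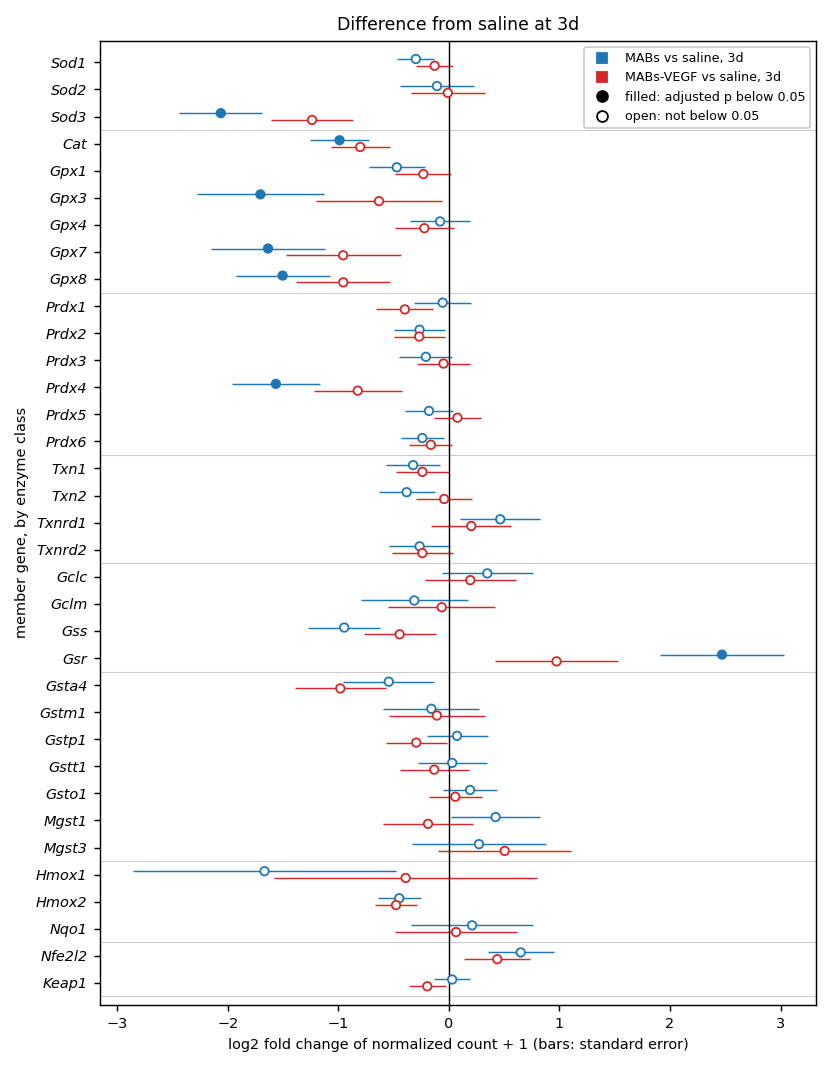
Log2 fold changes of the 35 genes, by enzyme class from the top, for MABs and MABs-VEGF against the same saline samples at 3d; bars are standard errors and filled points have an adjusted p below 0.05. The 7 filled points are all of MABs, with Gsr at 2.47 and Sod3 at -2.06 as the extremes.

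At 7d no gene of the set passed after MABs (limma, 0 at an unadjusted p below 0.05, 0 by DESeq2 and by edgeR), and 0.0% of all genes did. After MABs-VEGF none passed against saline (limma, 5 at an unadjusted p below 0.05, 0 by DESeq2 and by edgeR) or against MABs (limma, 4 at an unadjusted p below 0.05, 0 by DESeq2 and by edgeR), with 0.0% of all genes in each. Sod3 had 7117 to 11987 after saline, 5114 to 10496 after MABs and 6526 to 9887 after MABs-VEGF. Gsr had 162 to 328, 156 to 270 and 107 to 280 in the same order. The values of both genes overlapped between the 3 treatments at 7d. Txn1 was 5837 to 6860 after MABs-VEGF, with no overlap with 8135 to 15483 after saline, as for 3 of the 35 and 6.04% of all genes (log2 fold change -0.84, SE 0.24, adjusted p = 0.478, limma).

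The difference between days was also tested directly, as the change against saline at 3d minus that at 7d. No gene of the set passed for MABs (limma, 5 at an unadjusted p below 0.05, 0 by DESeq2 and by edgeR) or for MABs-VEGF (limma, 3 at an unadjusted p below 0.05, 0 by DESeq2 and by edgeR), and 0.0% of all genes did in each. The value for MABs was -1.73 for Sod3 (SE 0.53, adjusted p = 0.195, limma) and 2.59 for Gsr (SE 0.79, adjusted p = 0.194, limma). With 22 samples both passed for MABs, Sod3 at -2.11 (adjusted p = 0.00882, limma) and Gsr at 3.01 (adjusted p = 0.0227, limma), where 0.639% of all genes fell and 3.06% rose. Sod3 also passed for MABs-VEGF at -1.74 (adjusted p = 0.0311, limma), where 0.473% fell and 3.22% rose.

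The clearest pattern of the set lay between the days. It was read from an average over the 3 treatments, a comparison added after the data were seen. In this average, 18 of the 35 genes were lower at 3d than at 7d and 1, Gsr, was higher (limma, adjusted p below 0.05). Of all genes, 17.4% were lower and 25.5% higher. With the same total in each sample, 21 of the 35 were lower and 1 higher, and the counts over all genes were 3643 and 3603 in place of 2835 and 4148. The median log2 fold change of the 35, 3d against 7d, was -0.39, against 0.03 over all genes, and 32 of the 35 were lower. All 3 superoxide dismutases were among the 18, as were Gclc, Gclm and Gss, the genes that make glutathione, both thioredoxins (Txn1 and Txn2), the peroxiredoxins Prdx3, Prdx5 and Prdx6, Cat and Gpx3, the transferases Gstm1, Gsta4 and Gsto1, and Hmox2 and Nqo1. With 22 samples 19 were lower and 1 higher, against 16.7% and 25.0% of all genes. Such an average can rest on only some of the treatments. In saline alone, 4 of the 35 passed, and Gsr, Cat and Gpx3 were not among them. Their mean normalized counts in saline at 3d and 7d were 233 and 236 (Gsr), 4365 and 4219 (Cat), and 3511 and 3811 (Gpx3).

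Nqo1 (ENSRNOG00000012772), which reduces quinones with NAD(P)H, separated the days in every sample. At 3d it had normalized counts of 259, 901, 1051 and 1129 after saline, 406, 852, 1078 and 1328 after MABs, and 233, 886, 1191 and 1341 after MABs-VEGF. At 7d it had 2116, 2947, 4428 and 12167, then 1883, 2930, 3236 and 4494, and then 3143, 3156, 4280 and 5936. The 12 samples of 3d were all below the 12 of 7d, which held for 0.663% of all genes tested and for no other of the 35. Its log2 fold change, 3d against 7d, was -2.26 (SE 0.32, adjusted p = 6.20e-06, limma), and the separate values were -2.56 after saline (adjusted p = 0.0163), -1.83 after MABs (adjusted p = 0.0141) and -2.39 after MABs-VEGF (adjusted p = 0.00375). Nqo1 passed in no comparison between treatments at either day.

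Within saline, 4 genes were lower at 3d and none higher, where 0.995% of all genes were lower and 2.84% higher. Besides Nqo1 these were Gstm1, a mu-class transferase (882 to 2073 at 3d and 3633 to 8691 at 7d, log2 fold change -2.12, SE 0.44, adjusted p = 0.0143, limma), Txn1 (5360 to 8322 and 8135 to 15483, -0.89, SE 0.24, adjusted p = 0.0398, limma) and Prdx5 (2728 to 3247 and 4309 to 6183, -0.83, SE 0.21, adjusted p = 0.0317, limma). The days overlapped for Txn1, in 1 sample of 3d, and not for the other 3, and 10.6% of all genes did not overlap. With 22 samples none of the 4 passed (limma, 8 of the 35 at an unadjusted p below 0.05, 4 of the 35 by DESeq2 and 3 by edgeR), and 0.19% of all genes did by limma, 5.23% by DESeq2 and 1.81% by edgeR. Leaving out saline 3d replicate 6 alone gave none.

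Within MABs, 12 genes were lower at 3d and Gsr was higher, where 11.3% of all genes were lower and 19.3% higher. The largest differences were those of Sod3 (-2.16, SE 0.37, adjusted p = 0.000280, limma), Gpx3 (-1.92, SE 0.57, adjusted p = 0.0136, limma), Nqo1, and Gstm1 (-1.52, SE 0.44, adjusted p = 0.0104, limma), and Gsr had a log2 fold change of 2.35 (SE 0.56, adjusted p = 0.00293, limma). The other 8 that were lower were Gss, Sod2, Prdx4, Prdx5, Txn1, Txn2, Hmox2 and Sod1, with log2 fold changes from -1.44 to -0.60.

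Within MABs-VEGF, 5 genes were lower at 3d, where 5.21% of all genes were lower and 14.8% higher. Sod3 (-1.45, SE 0.37, adjusted p = 0.00841, limma), catalase (-0.92, SE 0.27, adjusted p = 0.0182, limma) and Hmox2 (-0.82, SE 0.19, adjusted p = 0.00434, limma) were among the 7 of 35 genes whose days did not overlap, as was Nqo1, against 21.8% of all genes. Gsta4 had 83.3 to 232 at 3d and 185 to 583 at 7d (-1.32, SE 0.41, adjusted p = 0.0251, limma), and it did not pass with 22 samples, where 7.84% of all genes were lower and 18.6% higher and Gsr was higher at 3d (1.45, SE 0.52, adjusted p = 0.0438, limma). Without 3d replicate 2 or 7d replicate 11, 3 of the 35 were lower. Gstm1, Txn1 and Prdx5, which led in saline, had 1600 to 3108, 5837 to 6860 and 2616 to 4281 in the MABs-VEGF samples of 7d. None of these 3 passed between the treatments at 7d. Reads that matched several places were discarded, so the level of Gstm1, which has close paralogs, is uncertain.

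**Figure D4:**
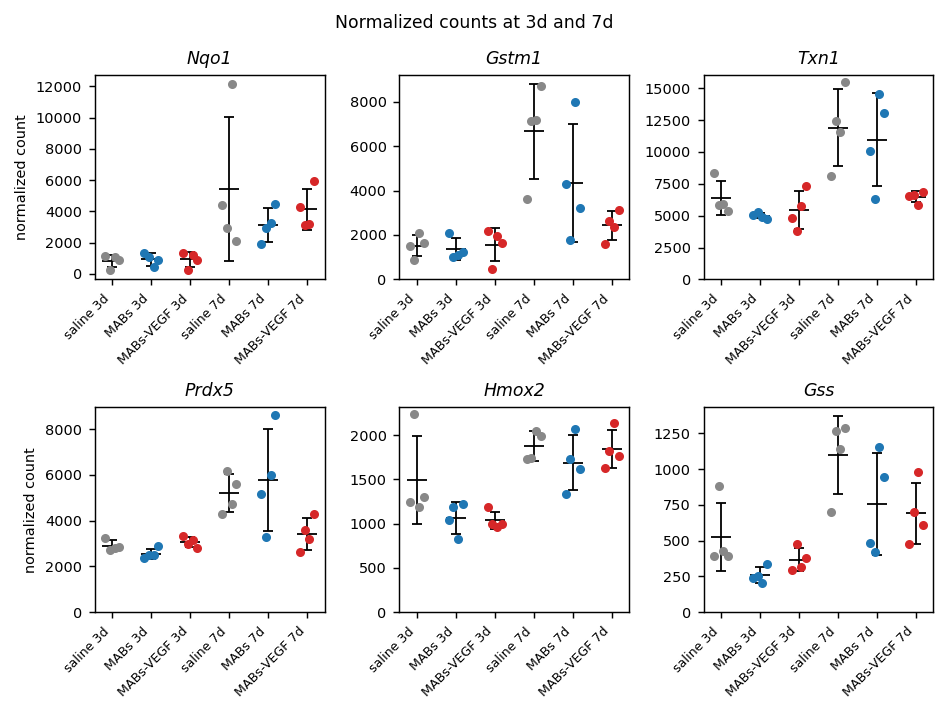
Normalized counts of 6 enzymes in the 6 groups, 1 point per sample (n = 4 per group), with the mean and SD as a bar. All samples of Nqo1 at 3d lie at or below 1341 and all of 7d at or above 1883.

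**Figure D5:**
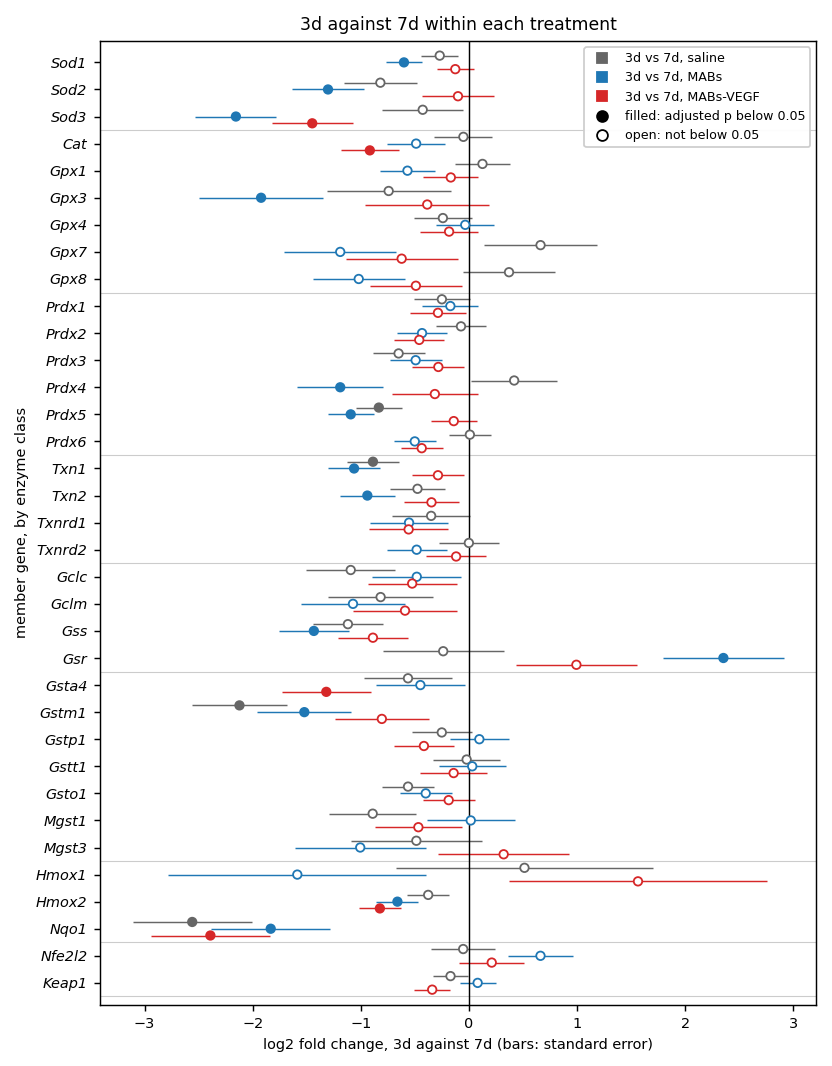
Log2 fold changes, 3d against 7d, of the 35 genes within saline, MABs and MABs-VEGF; bars are standard errors and filled points have an adjusted p below 0.05. Nqo1 is filled in all 3 treatments, Sod3 and Hmox2 in both cell treatments, and Gsr is filled on the right side only in MABs.

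Adipocyte markers moved with the day as well. All 7 were lower at 3d over the 3 treatments (median log2 fold change -3.36), and their sums at 7d were 7952 to 56523 in saline, 2467 to 76602 in MABs and 1460 to 8351 in MABs-VEGF, against 611 to 24976 in all samples of 3d. Of 7 red cell markers, 5 were lower at 3d, and so were 4 of 6 mast cell, 5 of 8 smooth muscle and 4 of 8 epithelial markers. Of all genes, 17.4% were lower and 25.5% higher. With 22 samples, 1 smooth muscle and 1 epithelial marker were higher at 3d. Nuclear-encoded subunits of the respiratory chain were lower for 11 of 13 (median -0.56). The part of these cells in the day differences of the enzymes, Nqo1 included, was not tested. The lowest Nqo1 of the saline and MABs-VEGF groups of 3d, 259 and 233, were those of saline replicate 8 and MABs-VEGF replicate 2. These samples had the low epithelial sums of 2109 and 3909. The MABs group of 3d had epithelial sums of 34518 to 113701 and Nqo1 of 406 to 1328. The relation of Nqo1 to these sums was not tested.

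In the lists of other genes, 14 of 36 glutathione and thioredoxin genes were lower at 3d over the 3 treatments and 3 higher. Among all genes, 17.4% were lower and 25.5% higher in this comparison, which is the background for each list. Slc7a11, the cystine transporter that feeds glutathione synthesis, had a log2 fold change of -2.22 (adjusted p = 0.000216, limma), Sesn3 one of 3.75 (adjusted p = 2.27e-07, limma) and Chac2 one of 2.49 (adjusted p = 0.00145, limma). Of the malic enzymes, which supply NADPH, Me1 (-0.93) and Me3 (-0.78) were lower and Me2 (0.55) was higher. Of 18 Nrf2 partners and targets, 5 were lower, among them Maff (-1.35), a small partner of Nrf2, and 4 higher, among them the repressors Bach1 (4.16) and Bach2 (2.75). Of 11 genes of haem and iron handling, 3 were lower, the transferrin receptor Tfrc and the haem synthesis enzymes Alas1 and Fech. Of 14 oxidant-producing enzymes 3 were lower and 2 higher, among them Mpo of neutrophils (-2.81) and Cybb of the phagocyte oxidase (1.13).

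The upstream sequence of the genes that moved between days was read from RefSeq windows (build GRCr8) that begin 250 bases before each gene start. Of the 35 genes 29 had a window. The 4 genes that were lower at 3d within saline are shown with the 100 bases before their start, 5ʹ to 3ʹ on the gene's strand, with GGGCGG or its complement, the letters of a GC box, in capitals.
Nqo1, chr19:52220268-52220367, minus strand: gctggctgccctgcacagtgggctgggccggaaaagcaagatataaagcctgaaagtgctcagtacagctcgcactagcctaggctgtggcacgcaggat
Txn1, chr5:77519686-77519785, minus strand: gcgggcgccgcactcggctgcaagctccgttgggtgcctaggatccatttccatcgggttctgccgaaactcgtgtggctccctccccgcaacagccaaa
Prdx5, chr1:213532028-213532127, minus strand: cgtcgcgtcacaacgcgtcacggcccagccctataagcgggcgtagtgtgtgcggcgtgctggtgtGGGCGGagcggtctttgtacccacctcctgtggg
Gstm1, chr2:198343384-198343483, minus strand: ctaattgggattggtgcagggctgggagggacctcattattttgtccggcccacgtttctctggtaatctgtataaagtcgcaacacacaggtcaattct

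In 250 bases, GGGCGG on either strand was found for 25 of the 29 genes, in 78.8% of their 33 windows and in 30.5% of all 33469 windows. The share among windows of only the genes tested here was not computed, for this motif or the next. The shares therefore do not compare the set with other expressed genes. The core letters of the antioxidant response element that Nrf2 binds, TGACNNNGC on either strand, stood in 10.1% of all windows and in 18.2% of those of the set. They were found for 6 genes, which are shown with 15 bases on each side of the match in capitals.
Sod2, chr1:50050180-50050218, minus strand: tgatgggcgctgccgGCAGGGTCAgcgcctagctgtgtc
Gstp1, chr1:210769743-210769781, minus strand: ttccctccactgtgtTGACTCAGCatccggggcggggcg
Gclm, chr2:213031948-213031986, plus strand: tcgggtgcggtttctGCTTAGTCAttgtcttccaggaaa
Prdx1, chr5:135383756-135383794, plus strand: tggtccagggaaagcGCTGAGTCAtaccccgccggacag
Txnrd1, chr7:22755959-22755997, minus strand: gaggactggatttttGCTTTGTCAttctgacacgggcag
Hmox2, chr10:11337684-11337722, minus strand: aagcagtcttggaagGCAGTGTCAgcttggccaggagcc

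Of these 6 genes, Sod2, Gclm and Hmox2 were lower at 3d over the 3 treatments, and Gstp1, Prdx1 and Txnrd1 did not pass. This is about the share of the whole set that was lower. None of the 6 passed after MABs at 3d, where 7 of the 35 did. The window of Nqo1 held no match, which says only that these letters are not in its 250 bases. A match describes the letters and not a site in use.

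Hmox1, which breaks down haem, and the regulators Nfe2l2 and Keap1 showed no difference past the threshold in any comparison between groups. Hmox1 reached 13768 in 1 MABs sample and 7759 in 1 MABs-VEGF sample of 3d, and 10161 in 1 saline and 11952 in 1 MABs sample of 7d, while its lowest values within the same groups were 114, 400, 575 and 570. Keap1 ran from 487 to 798 over all 24 samples. Nfe2l2 ran from 2019 to 7405, with its 4 highest values in cell-treated urethras of 3d.

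Finally, the MABs-VEGF samples named as recovered at 7d (replicates 6 and 7) were compared with the other 2. None of the 35 genes passed (limma, 1 at an unadjusted p below 0.05, 0 by DESeq2 and by edgeR), and 0.0% of all genes did. The gene with the unadjusted p below 0.05 was Gsta4, with 185 and 282 in the recovered and 571 and 583 in the other urethras (log2 fold change -1.33, SE 0.52, adjusted p = 1.0, limma).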

How the data were processed

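The authors made QuantSeq 3ʹ mRNA libraries, aligned reads of 50 bases with HISAT2 to the rat genome Rnor6.0, removed those mapping to several places, quantified genes with HTSeq and divided the results by DESeq2 size factors. The strand setting and annotation release are not given in the sources used here. The deposited signal is therefore a normalized count, and it was used as deposited. In each sample 100% of the values were whole multiples, within 0.001, of the value of 1 read (1.67 to 9.23), so reads were recovered. Replicates differed by more than counting error (36 pairs, with a chi-square of 9.00 to 121 for each degree of freedom).

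Groups came from the labels. log2(normalized count + 1) was tested with limma 3.58.1 (lmFit, eBayes with a trend) in R 4.3.3, two-sided, over 16287 genes with a mean of at least 2 (16281 with 22 samples), in 1 fit of 6 groups with Benjamini-Hochberg adjustment. Fold changes on this scale understate changes of low counts. Symbols came from the table. Alternatives were edgeR 4.0.16 (quasi-likelihood, TMM) and DESeq2 1.42.0 on recovered reads, a pseudocount of 5, no filter, the same total, only the groups compared, 22 samples, the replicate number as a block and leaving out each sample. Quantile normalization, both count tests with 22 samples and the average over treatments of 3d against 7d were added after seeing the data. The scripts were tested on simulated data. The members and lists were chosen with earlier results of these data known. Genes named are those of the set that passed (over 8, the 4 largest in each direction), those whose groups did not overlap against saline at 3d, the 3 highest and 3 lowest, and up to 3 per other list. Genes named beyond these were chosen after their values were seen. Results of 1 gene list are not reported here in full.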

Additional observations from a re-analysis of the deposited data

Results flagged for a closer look

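Of 210 groups of 4 samples (35 genes in 6 groups), 9 held a sample far from the other 3, where chance flags about 1 in 20 groups, or 10.5 here. Of these, 5 came from saline 3d replicate 8, which had 2560 for Gpx4 (1122 to 1196 in the others), 878 for Gss (391 to 429) and 2242 for Hmox2 (1190 to 1298), and was the lowest for Nqo1 at 259 (901 to 1129) and for Nfe2l2 at 2019 (3519 to 3777). MABs 3d replicate 1 was the lowest for Gpx4 at 802 (1476 to 1671) and for Gpx8 at 199 (993 to 1116). Saline 3d replicate 6 was the lowest for Gclm at 231 (532 to 574). MABs 7d replicate 13 was the lowest for Gstt1 at 191 (355 to 403).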

How the results depend on the processing

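For the count of enzymes past the threshold, all alternatives gave a number within 1.5 times the one reported, other than these. MABs against saline at 3d (7) gave 0 with only the groups compared. MABs-VEGF against saline at 3d (0) gave 1 with DESeq2, 3 with 22 samples, 6 with 22 samples and DESeq2 and 5 with 22 samples and edgeR. MABs-VEGF against saline at 7d (0) gave 1 with 22 samples and DESeq2. The saline comparison of 3d with 7d (4) gave 0 with only the groups compared and 0 with 22 samples, and that of MABs-VEGF (5) gave 8 with 22 samples and edgeR. The difference between days (0) gave 2 for MABs with 22 samples, by limma, DESeq2 and edgeR alike, and 1, 3 and 1 for MABs-VEGF. The cause was not tested. When each sample was left out in turn, the counts were 1 to 8 for MABs against saline at 3d, 0 to 2 for MABs-VEGF, 0 to 6 for 3d against 7d in saline, 11 to 15 in MABs, 3 to 6 in MABs-VEGF, 17 to 20 over all treatments and 0 to 1 for the difference between days for MABs.

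Single values were followed only for 57 results, each an enzyme in a comparison that passed in the main fit or with 22 samples. Of their 1350 values under an alternative, none changed direction, 87 lost and 48 gained the threshold. Results chosen because they passed were unlikely to change direction, so the absence of reversals does not describe the stability of the whole set. The saline count of 3d against 7d fell to 0 without saline 3d replicate 6, to 1 without saline 7d replicate 3 or 5 and to 2 without saline 3d replicate 9 or 10 or saline 7d replicate 2. In MABs-VEGF it was 3 without 3d replicate 2 or 7d replicate 11. MABs-VEGF against saline at 3d gave 2 without saline replicate 6 and 1 without MABs-VEGF replicate 4, and the difference between days for MABs gave 1 without saline 3d replicate 6. MABs against saline at 3d gave 1 without saline replicate 8 and 3 without MABs replicate 1. MABs and MABs-VEGF at 3d share the numbers 1 to 4. Same-numbered samples had correlations of 0.222, 0.150, 0.0734 and 0.254, and differently numbered ones had -0.225 to 0.200. These values do not settle whether the numbers mark pairs. The main fit did not take them as pairs, and with the replicate block 0 enzymes passed. Depth limits the low genes most, since 1 read was worth up to 9.23 normalized counts.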
